A study of Homo sapiens with 4 samples.

Results

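Mitochondrial ribosomal protein (MRP) genes are nuclear genes for the proteins of the mitoribosome, the ribosome that works inside mitochondria. The members were taken by name from the deposited count files, as every name made of MRPL or MRPS, a number and at most 1 letter A, B or C, with pseudogene copies dropped. This gave 78 genes of the 31907 gene names in the series: 51 for proteins of the large subunit, 26 for proteins of the small subunit, and MRPS36, which carries an MRP name although its protein is now known as a subunit of the α-ketoglutarate dehydrogenase complex. MRPS18A and MRPS30 also carry small-subunit names but sit in the large subunit, and they were counted there. The libraries came from HGC-27, a human gastric cancer cell line grown in culture, with 2 libraries of cells given PBS, the vehicle, and 2 libraries of cells given 200 ng/ml recombinant IL-17B (rIL-17B), all collected after 48 h. No genetic change was labelled in either group, 1 line served for both groups, and nothing in the sources says that the replicates were separate cultures, so p-values here measure only the spread between these libraries. The experiment asked how the transcriptome of these cells differs after rIL-17B, a cytokine that signals through the receptor IL-17RB.

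The mitoribosome makes the few respiratory chain proteins that mitochondrial DNA encodes. Its ribosomal RNAs, MT-RNR1 in the small subunit and MT-RNR2 in the large subunit, are transcribed from mitochondrial DNA, whereas all of its proteins are made in the cytosol and imported. Some of these proteins have a bacterial homolog, and others were added during the evolution of mitochondria. The promoters of nuclear genes for mitochondrial proteins are known for binding sites of NRF1, of the ETS factor GABP and of YY1, and MYC is known to act on many ribosome genes through the E-box.

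The 4 libraries held between 12888029 and 17555879 counts after names that could not be read were dropped, and MRP genes took between 0.306% and 0.467% of them. A count of 3, the least taken as detection, corresponded to between 0.171 and 0.233 CPM, the count scaled by the total of its library. Such limits allow for counting error alone, since PCR copies of a molecule were counted one by one. The library rIL-17B replicate 1 stood apart from the other 3. Its 8 mesenchymal markers summed to 802 CPM against between 16524 and 19479 CPM in the other libraries, with COL1A2 at 1.09 CPM against between 4699 and 5516 CPM. None of the 8 was at 0, but PDGFRA was at 0.0684 CPM against between 120 and 164 CPM. That is under the 0.205 CPM to which 3 counts corresponded in this library. Its 5 epithelial markers summed to 1818 CPM against between 777 and 1001 CPM, carried by KRT8 and KRT18, while KRT19 was at 0.0684 CPM against between 2.96 and 3.34 CPM. Its 8 neural and glial markers summed to 32.7 CPM against between 121 and 231 CPM, with DCX and SOX10 at 0 in all 4. The 9 monocyte markers, checked because the library protocol in the labels speaks of monocytes, summed to at most 14.8 CPM. Of the gastric mucosa markers, TFF1 and PGC were at 0 in all libraries and the 5 together reached at most 1.47 CPM, while the keratin KRT8 was at 601 CPM or more in every library. In bulk RNA, fewer cells of a type and less RNA per cell cannot be told apart. The part of these marker differences in the MRP values was not tested. The library is called by its label throughout, and whether its cells are HGC-27 cells given rIL-17B could not be settled from the counts. Values are therefore given for each rIL-17B library on its own, and the main fitted values also without this library.

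The start regions of 5 members are shown, chosen after their values were seen, because they span what the set holds: MRPS34 had the highest level per kb, MRPL36 was among the members with the smallest p and MRPS18A among those farthest above PBS in rIL-17B replicate 1, and MRPS14 and MRPS6 were the only members below both PBS libraries in both rIL-17B libraries. Each runs 5′ to 3′ on the gene's strand from 250 bases before to 30 bases after the start of the RefSeq transcript on GRCh38.p14, at chr16:1773105-1773384 on the minus strand (MRPS34), chr5:1799808-1800087 on the minus strand (MRPL36), chr6:43687762-43688041 on the minus strand (MRPS18A), chr1:175023396-175023675 on the minus strand (MRPS14) and chr21:34073328-34073607 on the plus strand (MRPS6). Capitals mark matches, on either strand, to the ETS motif CCGGAAG, the NRF1 motif TGCGCANGC, the YY1 motif AANATGGCG or the E-box CACGTG.
MRPS34: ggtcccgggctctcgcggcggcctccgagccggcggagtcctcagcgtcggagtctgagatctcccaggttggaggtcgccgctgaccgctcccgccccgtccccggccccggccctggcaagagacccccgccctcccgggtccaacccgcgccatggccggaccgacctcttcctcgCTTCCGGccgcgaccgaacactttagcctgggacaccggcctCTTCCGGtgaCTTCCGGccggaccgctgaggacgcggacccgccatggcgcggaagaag
MRPL36: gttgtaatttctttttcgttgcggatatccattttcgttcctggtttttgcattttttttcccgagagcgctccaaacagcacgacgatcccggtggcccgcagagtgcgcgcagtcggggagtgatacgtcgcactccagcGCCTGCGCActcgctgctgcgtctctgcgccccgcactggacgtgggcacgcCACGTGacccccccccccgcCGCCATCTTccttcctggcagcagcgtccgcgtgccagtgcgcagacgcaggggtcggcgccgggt
MRPS18A: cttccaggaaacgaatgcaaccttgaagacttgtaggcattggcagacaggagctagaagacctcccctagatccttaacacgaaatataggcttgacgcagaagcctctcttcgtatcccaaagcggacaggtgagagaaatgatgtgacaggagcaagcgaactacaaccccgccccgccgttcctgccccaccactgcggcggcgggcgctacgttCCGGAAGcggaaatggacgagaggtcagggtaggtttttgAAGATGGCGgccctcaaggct
MRPS14: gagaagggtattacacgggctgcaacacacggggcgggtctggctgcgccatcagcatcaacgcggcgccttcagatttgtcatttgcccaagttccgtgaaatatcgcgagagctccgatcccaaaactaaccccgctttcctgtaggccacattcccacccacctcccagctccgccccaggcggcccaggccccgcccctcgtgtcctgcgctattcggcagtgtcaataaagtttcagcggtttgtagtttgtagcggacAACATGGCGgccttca
MRPS6: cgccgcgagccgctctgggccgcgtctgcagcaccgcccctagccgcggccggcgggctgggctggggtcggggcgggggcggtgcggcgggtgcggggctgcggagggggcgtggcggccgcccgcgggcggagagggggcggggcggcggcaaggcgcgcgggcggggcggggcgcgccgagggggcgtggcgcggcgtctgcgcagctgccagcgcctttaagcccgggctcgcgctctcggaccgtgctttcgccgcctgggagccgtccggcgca

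MRPS34 held 3 matches to the ETS motif, with first bases 71, 29 and 19 bases before the transcript start. MRPL36 held an NRF1, an E-box and a YY1 match, MRPS18A an ETS and a YY1 match, MRPS14 a YY1 match, and MRPS6 none of the 4 motifs in this window. A match is a description of the letters, and a window without one says nothing about the factor.

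RefSeq start regions of 300 bases were matched by symbol for 69 of the 78 members. The ETS motif was in 29 of these 69 (42%), against 18.0% of the 11138 tested genes with such a region and 10.7% of all 27305 regions. The YY1 motif was in 18 (26.1%), against 6.37% of tested genes and 3.37% of all regions. For NRF1 the count was 9 (13.0%), against 7.82% and 4.63%, and for the E-box it was 6 (8.70%), against 9.74% and 7.43%. The ETS, YY1 and, on few members, NRF1 letters were thus at a higher share in MRP genes than in tested genes, and the E-box letters were not. In all, 46 of the 69 members (66.7%) held at least 1 of ETS, NRF1 and YY1, against 28.5% of tested genes and 16.7% of all regions. No match overlapped a match of another of these motifs. Position differed between them: 16 of the 20 YY1 matches were centred after the transcript start, against 6 of the 39 ETS matches and 0 of the 10 NRF1 matches.

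As a set, MRP transcripts were above PBS in both rIL-17B libraries, by far more in replicate 1 than in replicate 2. The 78 genes summed to 3098 and 3057 CPM with PBS and to 4671 and 3381 CPM with rIL-17B. The group means were 3078 ± 29.3 CPM (SD, n = 2) with PBS and 4026 ± 912 CPM (SD, n = 2) with rIL-17B, so the spread between the rIL-17B libraries was about as large as the difference between the groups. Against the PBS mean, the sum was 1.52-fold in rIL-17B replicate 1 and 1.10-fold in replicate 2. The ratio of the group means was 1.31, and it was 1.24 with library totals scaled by TMM normalization factors. With 2 libraries against 2, an exact two-sided permutation test cannot give a p under 0.333, and none is given for the sum.

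Both subunits shared this pattern. The large-subunit genes summed to 2010.5 and 1969 CPM in the PBS libraries and to 3054 and 2213 CPM in the rIL-17B libraries. The small-subunit genes summed to 1069.6 and 1070.1 CPM in the first group and to 1595 and 1148 CPM in the second. The ratio of the large to the small sum was 1.88 and 1.84 with PBS and 1.91 and 1.93 with rIL-17B, so the balance between subunit transcripts moved little beside the change of level in replicate 1. Members with a bacterial homolog (46) and members specific to mitochondria (31) had nearly the same median log2 fold change in the fit described next, 0.30 and 0.29, and 0.13 and 0.12 without rIL-17B replicate 1.

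Single members were tested with edgeR's quasi-likelihood test over the 16361 genes that passed its filter on low counts, and all 78 members passed that filter with a count above 0 in every library. With Benjamini-Hochberg adjustment no member passed the threshold of 0.05, and neither did any of the 16361 genes (0.0% called). The members' adjusted p ranged from 0.661 to 0.984. At an unadjusted p under 0.05 there were 3 members, MRPL30, MRPL36 and MRPL11, or 3.85% of the set against 1.38% of all genes tested. DESeq2 also called no gene, with 2 members and 457 genes at an unadjusted p under 0.05. The fitted log2 fold change was above 0 for 73 of the 78 members, with a median of 0.29 and a range from -0.59 to 0.93, against a median of -0.03 and 7753 genes above 0 among all 16361.

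Counted by library, 60 of the 78 members (76.9%) had both rIL-17B values above both PBS values, against 31.5% of all genes tested. Only MRPS6 and MRPS14 had both below (2.56% of members, against 27.5% of all genes tested), and 16 members overlapped between the groups. Among the 51 large-subunit genes 41 were higher and 0 lower, and among the 26 small-subunit genes 18 were higher and 2 lower. These counts rest on the order of 4 values and carry no p.

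**Figure D1:**
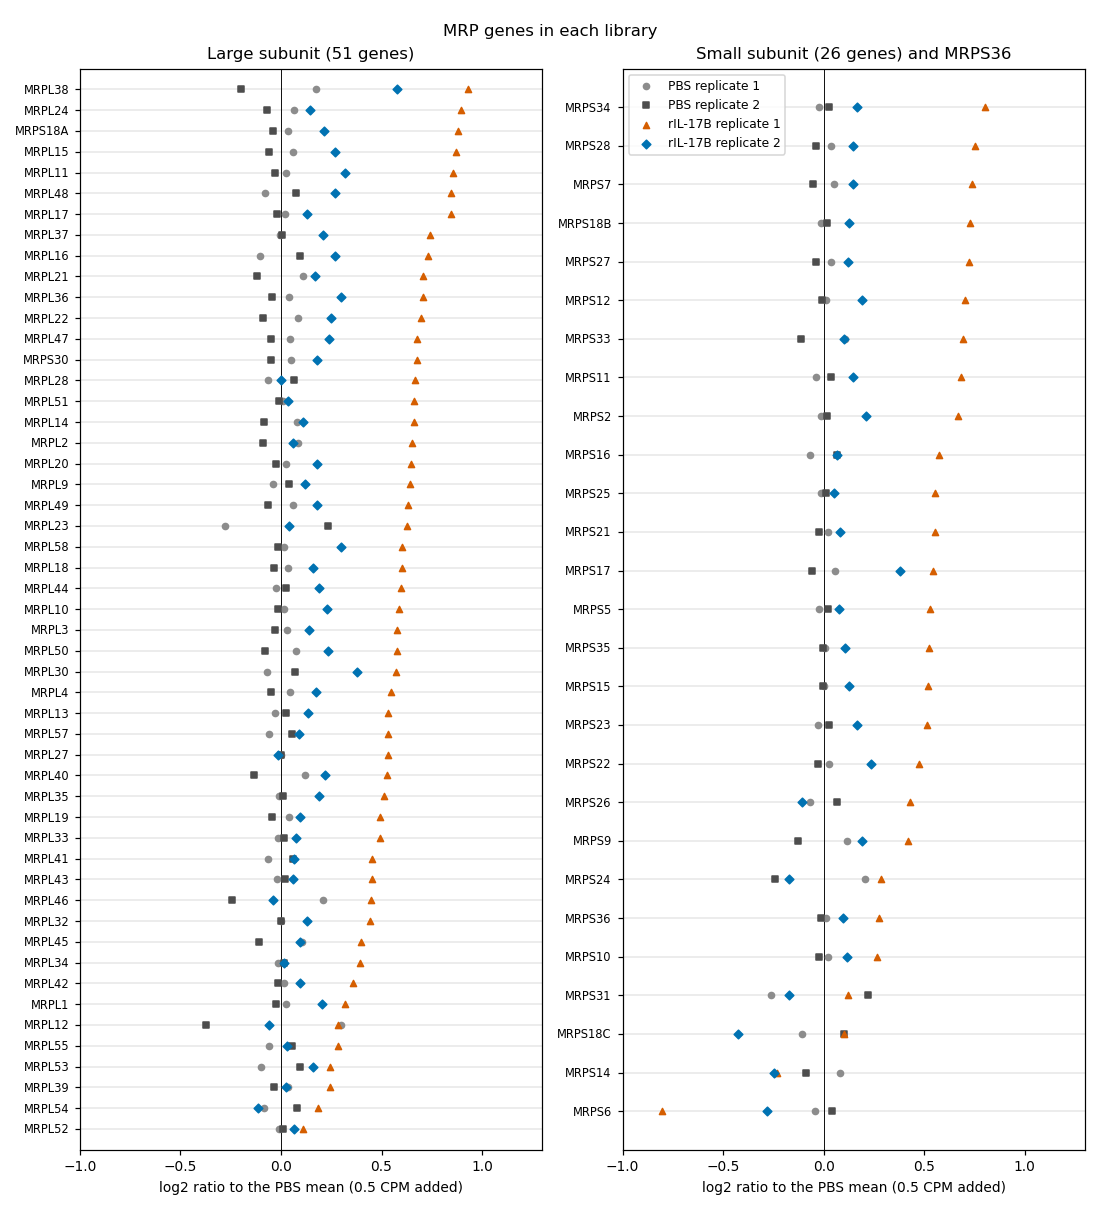
Each row is 1 MRP gene and each point 1 library, as the log2 ratio of its CPM to the mean of the PBS libraries with 0.5 CPM added to both; circles and squares are the PBS libraries, triangles rIL-17B replicate 1 and diamonds rIL-17B replicate 2. The triangles lie right of 0 for 76 of the 78 genes and the diamonds for 68, and MRPS6 and MRPS14 at the foot of the right panel have both to the left.

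The size of the difference depended on the library. In rIL-17B replicate 1 the members were at a median of 1.49-fold of the PBS mean, with quartiles of 1.38 and 1.61 and a range from 0.564 to 2.33, while the median over all genes tested was 1.06-fold. In rIL-17B replicate 2 the median was 1.09-fold, with quartiles of 1.05 and 1.14 and a range from 0.705 to 1.73, against 0.999-fold over all genes tested. For scale, the PBS libraries differed from each other by a median of 1.06-fold and stayed within 1.25-fold of each other for 72 members. The distance from the PBS mean exceeded the difference between the PBS libraries for 74 members in replicate 1 and for 56 in replicate 2. Replicate 1 was above replicate 2 for 77 of the 78 genes, MRPS6 being the exception. The counts by these rules were not made over all genes tested, so they do not show a trait particular to MRP genes.

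At 1.25-fold or more above the PBS mean, replicate 1 had 67 members (85.9%, against 35.7% of all genes tested) and replicate 2 had MRPL30, MRPL38 and MRPS17 (3.85%, against 7.32%). MRPL30, MRPL38 and MRPS17 each share exon bases with another gene on the same strand. Replicate 2 was above both PBS libraries for 60 members (76.9%, against 37.0%), so its shift was broad but small. At least 1.25-fold below the PBS mean, replicate 1 had MRPS6 alone (1.28%, against 32.6%). Most MRP genes therefore lay in a narrow band above PBS in replicate 1, while all genes tested spread widely to both sides.

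**Figure D2:**
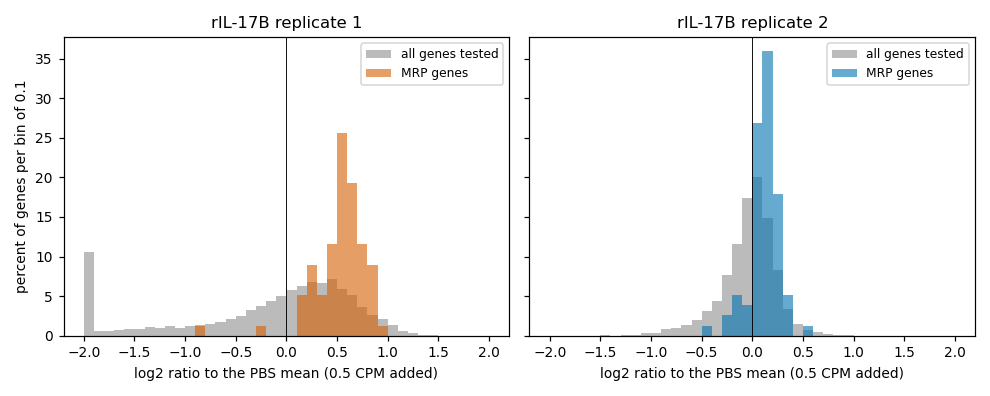
Histograms of the log2 ratio of each gene's CPM to the PBS mean (0.5 CPM added to both) in bins of 0.1, for the 78 MRP genes in colour and all 16361 genes tested in grey, with rIL-17B replicate 1 left and replicate 2 right; values beyond the ends are counted in the outermost bins. The MRP genes peak right of 0 in both libraries, with medians of 0.56 and 0.13, while the grey medians are 0.08 and -0.001.

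Refitted without rIL-17B replicate 1, edgeR called 0 of the 78 members at an adjusted p under 0.05, against 0.643% of the 17103 genes tested called higher and 2.3% called lower. The members' median log2 fold change was then 0.13, with 68 of 78 above 0 and 12 members (15.4%, against 13.7% of all genes tested) at an unadjusted p under 0.05, and the smallest adjusted p was 0.0757, for MRPL30. Refitted without rIL-17B replicate 2, which leaves the library that stood apart as the only one of its group and assumes that it varies like the PBS libraries, edgeR called 59 members higher (75.6%, against 23.2% of the 17223 genes tested) and MRPS6 and MRPS14 lower (2.56%, against 31.9%). The median was 0.44 in that fit. Whether single MRP genes passed the threshold thus turned on which rIL-17B library was compared with PBS.

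The 5 members with the smallest p were all in the large subunit, which holds 51 of the 78 members. A choice by p favours groups that do not overlap, so non-overlap among these 5 is no separate result. MRPL30 was at 23.2 and 25.6 CPM with PBS and at 36.5 and 31.9 CPM with rIL-17B. Its groups did not overlap, and its log2 fold change was 0.41 with a standard error of 0.12 (edgeR quasi-likelihood, adjusted p = 0.661). MRPL30 is the large-subunit protein whose bacterial homolog is L30, and it was the member with the most similar shift in the 2 rIL-17B libraries among these genes, 1.49-fold and 1.31-fold. On the same strand MRPL30 shares 564 exon bases with AC079447.1 and 380 with AC092587.1. MRPL36, the homolog of the small bacterial protein L36, was at 32.8 and 30.9 CPM with PBS and at 52.2 and 39.3 CPM with rIL-17B. Its log2 fold change was 0.44 with a standard error of 0.15 (adjusted p = 0.661), and none of its exon bases is shared with another gene. MRPL11, which with ribosomal RNA forms the base of the stalk where translation factors bind, was at 40.6 and 39.0 CPM with PBS and at 72.4 and 49.7 CPM with rIL-17B. Its log2 fold change was 0.54 with a standard error of 0.18 (adjusted p = 0.661). Without rIL-17B replicate 1 these values were 0.39, 0.30 and 0.32 for MRPL30, MRPL36 and MRPL11 (edgeR adjusted p = 0.0757, 0.179 and 0.10).

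MRPL10, which anchors the stalk, and MRPL58, a peptidyl-tRNA hydrolase built into the mitoribosome that frees stalled chains, followed. MRPL10 was at 46.1 and 45.2 CPM with PBS and at 68.8 and 53.5 CPM with rIL-17B. MRPL58 was at 17.4 and 17.1 CPM with PBS and at 26.4 and 21.3 CPM with rIL-17B. Both had rIL-17B libraries above PBS libraries without overlap, with log2 fold changes of 0.34 and 0.39 (adjusted p = 0.661 for each). These were 0.23 and 0.30 without rIL-17B replicate 1 (adjusted p = 0.320 and 0.351).

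By the log2 ratio with 0.5 CPM added, the members farthest above the PBS mean in rIL-17B replicate 1 were the large-subunit genes MRPL38, MRPL24, MRPS18A, MRPL15 and MRPL11. By the plain ratio MRPS28 of the small subunit (1.83-fold) came just before MRPL11 (1.82-fold). MRPL38, a protein specific to mitochondrial ribosomes, was at 1.26 and 0.854 CPM with PBS and at 2.46 and 1.82 CPM with rIL-17B. These values rest on counts of 20 and 11 with PBS and of 36 and 32 with rIL-17B, so its 2.33-fold and 1.73-fold are the least certain of the 5. MRPL24, the homolog of a bacterial protein that starts the assembly of the large subunit, was at 43.1 and 39.3 CPM with PBS and at 77.2 and 45.6 CPM with rIL-17B, or 1.87-fold and 1.11-fold of the PBS mean. MRPL15 was at 66.2 and 60.9 CPM with PBS and at 117 and 76.6 CPM with rIL-17B, or 1.83-fold and 1.20-fold. All 5 had both rIL-17B values above both PBS values, as did 60 of the 78 members and 31.5% of all genes tested. They were chosen as highest in replicate 1, so only their replicate 2 values were free in this rule. In the edgeR fit of 4 libraries their adjusted p was 0.661 each. Without rIL-17B replicate 1 the log2 fold changes were 0.76, 0.14, 0.22 and 0.26 for MRPL38, MRPL24, MRPS18A and MRPL15.

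At the other end, 2 small-subunit genes lay below PBS in both rIL-17B libraries. MRPS6, whose bacterial homolog S6 sits on the platform of the small subunit, was at 23.1 and 24.4 CPM with PBS and at 13.4 and 19.4 CPM with rIL-17B. It was thus 0.564-fold and 0.818-fold of the PBS mean, with a log2 fold change of -0.59 and a standard error of 0.28 (edgeR quasi-likelihood, adjusted p = 0.661). Without rIL-17B replicate 1 its log2 fold change was -0.29 (adjusted p = 0.337). SLC5A3, the myo-inositol transporter gene that shares 273 exon bases with MRPS6 on the same strand and was looked up after the MRPS6 values were seen, was at 85.3 and 107 CPM with PBS and at 51.8 and 77.1 CPM with rIL-17B. The CPM of both genes was lower in both rIL-17B libraries, and how reads on their shared bases were assigned is not known.

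MRPS14, whose bacterial homolog S14 lies in the head of the small subunit, was at 22.4 and 19.9 CPM with PBS and at 18.0 and 17.8 CPM with rIL-17B. Its rIL-17B libraries were alike, at 0.849-fold and 0.839-fold, and its log2 fold change was -0.32 with a standard error of 0.15 (adjusted p = 0.661), or -0.26 without replicate 1 (adjusted p = 0.447). It shares 351 exon bases on the other strand with CACYBP, a gene looked up after the values were seen, which was at 124 and 109 CPM with PBS and at 150.4 and 131 CPM with rIL-17B. Within this pair MRPS14 was lower and CACYBP higher in the rIL-17B libraries.

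The members with the smallest distance from PBS in replicate 1 were MRPL52, MRPS18C and MRPS31. MRPL52, a mitochondria-specific protein of the large subunit, was at 28.3 and 28.8 CPM with PBS and at 30.8 and 29.8 CPM with rIL-17B, 1.08-fold and 1.05-fold of the PBS mean. MRPS31, a mitochondria-specific protein of the small subunit, was at 9.87 and 14.0 CPM with PBS and at 13.0 and 10.5 CPM with rIL-17B, so its groups overlapped fully. The 3 genes MRPS18A, MRPS18B and MRPS18C descend from the single bacterial S18 gene, and they differed in level and in shift. In the classes used above, only MRPS18C was counted as having a bacterial homolog, and MRPS18A and MRPS18B were counted as specific to mitochondria. MRPS18A, which shares 604 exon bases with RSPH9 on the other strand, was at 12.8 and 12.1 CPM with PBS and at 23.3 and 14.5 CPM with rIL-17B (1.88-fold and 1.17-fold). MRPS18B was at 75.6 and 77.3 CPM with PBS and at 127 and 83.6 CPM with rIL-17B (1.66-fold and 1.09-fold). MRPS18C, which takes the place of bacterial S18 in the small subunit, was at 2.89 and 3.41 CPM with PBS and at 3.42 and 2.22 CPM with rIL-17B (1.08-fold and 0.705-fold), on counts between 39 and 50. The groups did not overlap for MRPS18A and MRPS18B and did for MRPS18C. MRPS36, the member that is no ribosome protein, was at 18.3 and 18.0 CPM with PBS and at 22.1 and 19.4 CPM with rIL-17B.

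Levels per kb of exon, a scale for setting genes of different length side by side, spanned 319-fold over the 78 members in the PBS mean. The length was the union of annotated exons, which can exceed that of the transcripts expressed and then lowers the level. MRPL42, with 16393 such bases, had a PBS mean of 66.7 CPM but of 4.07 CPM per kb. MRPS34, a mitochondria-specific small-subunit protein, was highest at 76.9 and 79.6 CPM per kb with PBS, and at 137 and 87.8 with rIL-17B. On the plain CPM scale it was at 84.4 and 87.4 with PBS and at 149.9 and 96.3 with rIL-17B. MRPL15, MRPL18, MRPL51, MRPL37 and MRPL3 followed, with PBS means of 53.4, 50.8, 48.4, 47.2 and 46.3 CPM per kb. MRPS18B (40.5) and MRPS35 (39.7) were the next small-subunit genes. The 10 highest genes in PBS were also the 10 highest in each rIL-17B library. Of the 77 pairs of neighbours in the PBS order, 52 had PBS libraries that overlapped, so the order from gene to gene is uncertain. None of the 68 pairs that lay 10 places apart overlapped. The order was taken from the mean of the same libraries, so these counts do not test whether it would hold in others.

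The low end of the order was made of a few genes. The 8 lowest were MRPS24 (0.245 CPM per kb), MRPL38 (0.288), MRPS18C (0.648), MRPL46 (0.658), MRPS28 (1.28), MRPL12 (2.1), MRPS17 (2.26) and MRPL53 (2.74), and the other 70 lay between 4.07 and 78.3 CPM per kb, a 19.2-fold span. MRPS24 rested on counts of 13 and 6 with PBS and of 13 and 9 with rIL-17B, at 0.817, 0.466, 0.889 and 0.513 CPM. MRPL12, the stalk protein of the large subunit that contacts translation factors, was at 2.77 and 1.55 CPM with PBS and at 2.74 and 2.05 CPM with rIL-17B. MRPL46 was at 4.97 and 3.49 CPM with PBS and at 5.95 and 4.10 CPM with rIL-17B, and MRPS28 at 2.39 and 2.25 CPM with PBS and at 4.24 and 2.62 CPM with rIL-17B. The groups overlapped for MRPS24, MRPL12 and MRPL46 and not for MRPS28. The fitted log2 fold changes of MRPS24, MRPL12 and MRPL46 were 0.02, 0.06 and 0.16, and turned to -0.35, -0.10 and -0.06 without rIL-17B replicate 1.

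In the GENCODE 29 annotation of GRCh38, 7 of these 8 share exon bases with another gene on the same strand, as do 16 of all 78 members. MRPS24 shares 606 bases with the readthrough gene URGCP-MRPS24, MRPL38 shares 1373 with AC087289.3, and only 31.8% of the exon bases of MRPL12 are free of AC139530.2. The eighth, MRPS18C, shares 1956 bases with ABRAXAS1 on the other strand. The median PBS level was 4.80 CPM per kb for the 16 members with overlap on the same strand, 10.7 for the 25 with overlap on the other strand alone, and 18.5 for the 37 with none, which ran from 4.10 to 78.3 CPM per kb. The part of read assignment at shared bases in these levels was not tested, and levels of the overlapping members are uncertain. The median log2 fold change was 0.25, 0.30 and 0.30 in the 3 classes, and 0.08, 0.14 and 0.12 without rIL-17B replicate 1.

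**Figure D3:**
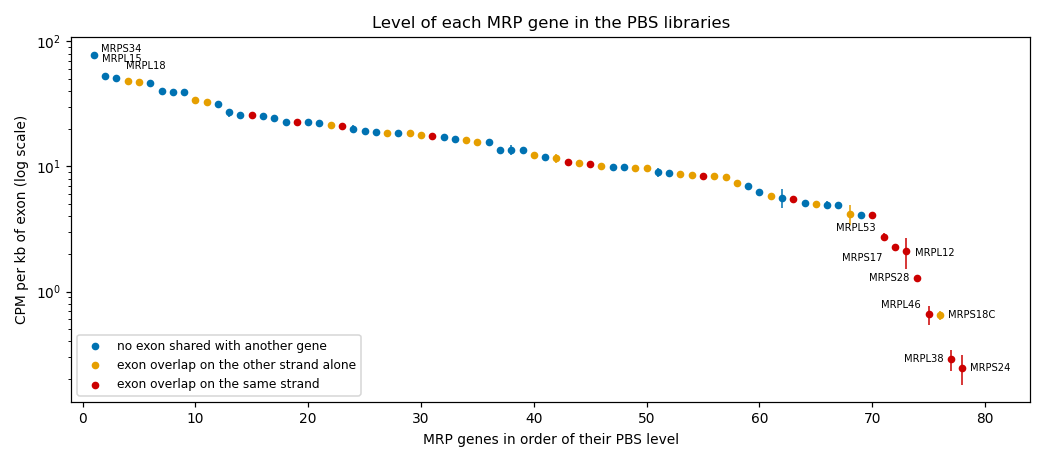
The 78 MRP genes in order of their mean level in the PBS libraries, in CPM per kb of exon on a log scale, with lines joining the PBS libraries where they are wider than the point. Colour gives exon overlap in the annotation, and red marks 7 of the 8 lowest genes, below the 70 genes that span 4.07 to 78.3 CPM per kb.

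The members lie on 21 chromosomes, and for 29 a coding gene on the other strand starts within 1 kb, with or without overlap. MRPL46 and MRPS11, a large- and a small-subunit gene, start 34 bases apart on chromosome 15, in opposite directions. MRPS11 was at 31.6 and 33.4 CPM with PBS and at 52.5 and 36.1 CPM with rIL-17B, 1.61-fold and 1.11-fold, while MRPL46 was 1.41-fold and 0.970-fold of its PBS mean. MRPL43 and TWNK, the gene of the mitochondrial DNA helicase, start 148 bases apart on chromosome 10 and share 149 exon bases on opposite strands. MRPL43 was at 26.1 and 26.8 CPM with PBS and at 36.4 and 27.6 CPM with rIL-17B, and TWNK at 39.2 and 42.8 CPM with PBS and at 79.9 and 51.1 CPM with rIL-17B. Each gene of the MRPL43 and TWNK pair was above PBS in both rIL-17B libraries, TWNK by more (1.95-fold and 1.25-fold, against 1.38-fold and 1.04-fold). The third such pair is MRPS12 and SARS2, the gene of the mitochondrial seryl-tRNA synthetase. They start 348 bases apart on chromosome 19 and share 349 exon bases on opposite strands. MRPS12 was 1.64-fold and 1.14-fold of its PBS mean and SARS2 1.05-fold and 0.566-fold, on SARS2 counts of 11 to 18. How reads on the shared bases of these pairs were assigned is not known. Members with at least 1 of the ETS, NRF1 and YY1 motifs and members with none had nearly the same shift, with medians of 1.48-fold and 1.47-fold in replicate 1 and of 1.09-fold each in replicate 2.

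The RNA parts of the mitoribosome lay on the other side of PBS from its protein genes. MT-RNR1, the small-subunit ribosomal RNA, was at 8535 and 8436 CPM with PBS, at 684 CPM in rIL-17B replicate 1 and at 7267 CPM in replicate 2. MT-RNR2, the large-subunit ribosomal RNA, was at 23436 and 22777 CPM with PBS and at 8099.8 and 20528 CPM with rIL-17B. Both were lower than PBS in both rIL-17B libraries, and MT-RNR1 was 0.0806-fold of the PBS mean in the library that stood apart and 0.856-fold in the other, with no call in the edgeR fit (adjusted p = 0.692 for MT-RNR1 and 0.661 for MT-RNR2). The reverse transcription was primed with oligo-dT, so these values count only the rRNA molecules that such a primer reached. The 13 mitochondrial mRNAs, which the mitoribosome translates, summed to 56834 and 55916 CPM with PBS and to 61367 and 56876 CPM with rIL-17B. In replicate 1 the single mRNAs went both ways, from 0.756-fold (MT-ND1) to 1.76-fold (MT-ND4L), with 7 above and 6 below the PBS mean.

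**Figure D4:**
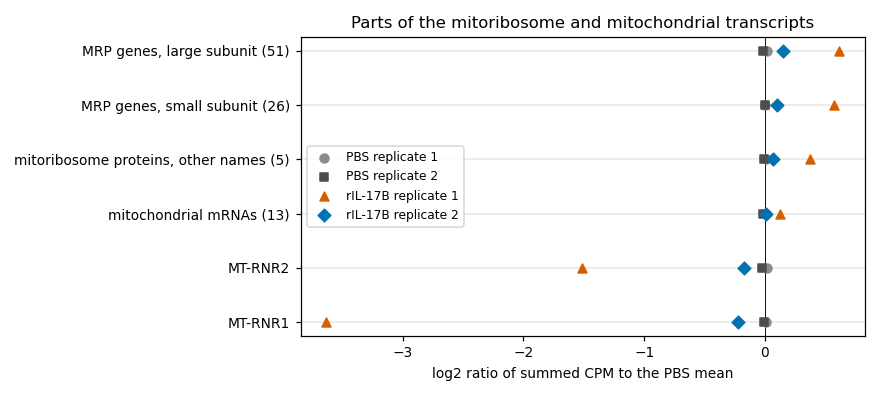
Summed CPM of the parts of the mitoribosome and of the mitochondrial mRNAs in each library, as the log2 ratio to the mean of the PBS libraries, with the number of genes in parentheses. In rIL-17B replicate 1 (triangles) the protein genes lie right of 0, the sum of the mRNAs close to it, and MT-RNR2 and MT-RNR1 far to the left, at 0.351-fold and 0.0806-fold of PBS.

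Genes that work with the mitoribosome were taken from lists written from general knowledge, and none of their genes passed the threshold in the fit of 4 libraries. The 5 mitoribosome proteins under other names had a median log2 fold change of 0.21, with 4 above 0 and 1 below, and of 0.08 without rIL-17B replicate 1. Among them AURKAIP1, a small-subunit protein, was at 74.9 and 76.9 CPM with PBS and at 106 and 81.0 CPM with rIL-17B, and DAP3, a GTP-binding small-subunit protein known also from apoptosis, at 94.4 and 90.9 CPM with PBS and at 116 and 100.5 CPM with rIL-17B. GADD45GIP1 was the one below 0, at 56.5 and 59.0 CPM with PBS and at 60.3 and 54.0 CPM with rIL-17B. All but GADD45GIP1 had both rIL-17B values above both PBS values, a rule met by 31.5% of all genes tested.

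The 25 assembly factors of the mitoribosome had 20 genes above 0 and 5 below (median 0.23), the 15 translation factors 14 and 1 (median 0.26), the 20 mitochondrial aminoacyl-tRNA synthetases 17 and 3 (median 0.27) and the 9 genes of mitochondrial DNA transcription and maintenance 9 and 0 (median 0.31), beside the median of -0.03 over all genes tested. Without rIL-17B replicate 1 these medians were 0.09, 0.11, 0.12 and 0.15, beside -0.01. Higher in both rIL-17B libraries without overlap were 13, 11, 13 and 6 genes of these 4 lists (52.0%, 73.3%, 65% and 66.7%, against 31.5% of all genes tested), and none was lower in both (against 27.5%). MALSU1, a factor that keeps the subunits apart during assembly, was at 27.2 and 27.3 CPM with PBS and at 40.2 and 32.5 CPM with rIL-17B. TACO1, the translational activator of COX1, was at 24.3 and 22.5 CPM with PBS and at 35.5 and 27.7 CPM with rIL-17B. TEFM, the elongation factor of mitochondrial transcription, was at 4.72 and 5.90 CPM with PBS and at 9.10 and 8.71 CPM with rIL-17B, and was the one of these genes with nearly equal shifts, 1.71-fold and 1.64-fold.

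Of the 9 known regulators of nuclear mitochondrial genes, 7 were above 0 and 2 below (median 0.14), and 5 were higher (55.6%, against 31.5% of all genes tested) and 2 lower (22.2%, against 27.5%) without overlap. The median was 0.02 without rIL-17B replicate 1, with 6 above 0 and 3 below. GABPA, the DNA-binding subunit of GABP, whose ETS motif was the most frequent one in MRP start regions, was at 43.4 and 48.4 CPM with PBS and at 39.6 and 38.5 CPM with rIL-17B. Its partner GABPB1 was at 34.8956 and 37.3 CPM with PBS and at 34.8948 and 34.8 CPM with rIL-17B. GABPB1 is thus counted as lower without overlap on a near tie. GABPA was thus below PBS in both rIL-17B libraries, at 0.861-fold and 0.838-fold, and GABPB1 close to the lower PBS library. Whether the level of either gene bears on MRP transcripts was not tested. NRF1 was at 13.7 and 14.0 CPM with PBS and at 17.5 and 14.6 CPM with rIL-17B. YY1 was at 148 and 144 CPM with PBS and at 183 and 157 CPM with rIL-17B. MYC was at 202 and 214 CPM with PBS and at 332 and 225 CPM with rIL-17B, and PPRC1, a coactivator of the PGC-1 family, at 89.3 and 92.7 CPM with PBS and at 153 and 97.8 CPM with rIL-17B. None of the 9 passed the threshold (edgeR adjusted p = 0.661 for GABPA, the one with the smallest p).

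The same direction was seen outside the mitoribosome. The 83 cytosolic ribosomal protein genes had 63 above 0 and 20 below (median 0.19), and the 77 nuclear respiratory chain subunits 62 and 15 (median 0.22), with 0 called in each. Their medians were 0.08 and 0.07 without rIL-17B replicate 1. Whether MRP genes differed from these lists was not tested.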

How the data were processed

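RNA was sequenced from 4 Smart-seq2 libraries of HGC-27 cells, 2 with PBS and 2 with rIL-17B. The values deposited by the authors are raw counts of reads per gene name, without normalization. The submitters' processing notes name hg38, HISAT2 2.1.0, Bowtie2 2.2.3, TopHat2 and HTSeq 0.6.0, without their roles. The use of strand is not given in the sources used here. Between 22 and 25 names per library read as dates were dropped, between 85 and 100 repeated names were used once, and names missing from a library were set to 0, which left totals of 15904594 and 12888029 counts with PBS and 14615341 and 17555879 with rIL-17B. The 15 pseudogene names of members held between 81 and 140 counts per library and were left out. MRP members and gene lists were chosen with earlier results of these data known.

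CPM was the count over the library total, and CPM per kb used the union of exons in GENCODE 29. Groups were compared with edgeR 4.0.16 in R 4.3.3 (TMM, with factors between 0.970 and 1.07, filterByExpr, quasi-likelihood F test, Benjamini-Hochberg adjustment, threshold 0.05), tested on simulated data. Alternatives were DESeq2 1.42.0, upper-quartile normalization, library totals alone, no filter, at least 10 counts in every library, a replicate block, and leaving out each library. Genes described singly were the 3 highest and 3 lowest members of each subunit per kb in PBS, the 5 with the smallest p, the 5 highest and 5 lowest in rIL-17B replicate 1, the MRPS18 paralogs, and the gene with the smallest p in each list. A gene that this rule names is not reported here. MRPL3, MRPL37, MRPL42, MRPL43, MRPL53, MRPS11, MRPS12, MRPS17 and MRPS36 were added after their values were seen. So were the genes beside or overlapping members, the ribosomal RNAs and further list genes. The start regions came from RefSeq. A planned comparison of the MRPS18 proteins is not analysed here.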

Additional observations from a re-analysis of the deposited data

How the results depend on the processing

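The median log2 fold change of the members kept its sign under every alternative that was run, but 5 members changed sign without rIL-17B replicate 1 (MRPL12, MRPL27, MRPL46, MRPS24, MRPS26), 5 without PBS replicate 2, 3 without rIL-17B replicate 2, and 1 each with library totals alone and with at least 10 counts in every library. The number of MRP genes called was 0 with DESeq2, upper-quartile normalization, library totals alone, either filter and the replicate block, and ran from 0 to 61 when 1 library was left out, 61 being the fit without rIL-17B replicate 2. The genes called in the lists of mitochondrial gene expression likewise ran from 0 to 56 of 83 when 1 library was left out, the latter without rIL-17B replicate 2, where 55.1% of all genes tested were called. The median log2 fold change of the members stayed between 0.25 and 0.37 with all 4 libraries, and ran from 0.13 without rIL-17B replicate 1 to 0.44 without rIL-17B replicate 2. Library totals alone moved the median of all genes from -0.03 to 0.04. Members higher in both rIL-17B libraries numbered 55 with DESeq2 size factors and between 60 and 74 when 1 library was left out. Members lower in both numbered between 2 and 6, with 6 without rIL-17B replicate 1. Leaving out a library makes this rule looser for every gene. Apart from the 60 higher without rIL-17B replicate 1 (76.9%, against 37.0% of genes tested), shares over all genes were not counted in these settings. The other counts therefore do not set MRP genes against other genes. The replicate numbers are shared by the groups, but the labels state no pairing, and deviations of same-numbered libraries correlated at 0.08. A paired fit with the replicate block called 0 members and 0 genes (173 genes and 0 members at an unadjusted p under 0.05), with a median of 0.29. The depth limits MRPS24 and MRPL38 most, with as few as 6 and 11 counts in a library.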
